A study of Danio rerio with 29 samples.

Results

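The comparison set 3 wild-type (WT) zebrafish brain libraries against 6 WT libraries of the body without its brain, 9 of the 29 libraries in the series. They were chosen by genotype and tissue alone. All 9 came from adult WT fish, which were siblings of mutants from incrosses of heterozygous carriers of CRISPR/Cas9 alleles of ccser1. The sources used here do not give the line the siblings came from, the number of fish per library, sex or age beyond adulthood. The other 20 libraries came from homozygous fish of the CCSER1_P471 (M) and CCSER1_S48Y* (S) lines and entered 1 comparison at the end. Each brain library was from a whole brain. Each body library was from the body without its brain, so every gene was set against a mixture of muscle, skin, gut, gonad and other tissues. Whether every body held the same parts of the head, such as eyes and pituitary, was not tested.

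The brain of bony fish holds neurons that signal through fast transmitters and peptides, astroglia that clear transmitter and potassium, and oligodendrocytes that wrap axons in myelin. Patterning genes set up in the embryo keep regional expression in the adult: forebrain and midbrain transcription factors anteriorly, and hox genes in an order along the hindbrain and trunk that follows their order in the clusters. Many metabolic and contractile proteins are encoded by families of paralogs, of which vertebrate brain and muscle often use different members.

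Counts per library totalled 7761976, 7957712 and 8839634 in the brains and 10065510 to 11674882 in the bodies. Levels are given as CPM, a gene's share of the counts of its library after TMM scaling, and fold changes as log2 of brain over body with their standard error (SE) from edgeR. Reads per gene depend on transcript length, so levels were compared between tissues within a gene and not between genes. In bulk samples, fewer cells of a type and less RNA per cell cannot be told apart. Each tissue was deposited as its own count table and the labels name no batch, so tissue and any batch that followed it cannot be told apart. Whether separate animals stand behind the libraries is not given in the sources used here, so p-values cover the spread from library to library alone, which may be technical.

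Of 21120 genes tested, 16289 (77.1%) were called at an edgeR adjusted p below 0.05 (Benjamini-Hochberg). In brain, 7769 (36.8%) were higher and 8520 (40.3%) lower. A call together with a change of at least 4-fold was met by 3740 genes higher in brain (17.7%) and by 5259 lower in brain (24.9%). The 3 brains lay above all 6 bodies for 7595 genes (36%) and below all of them for 7817 (37%). Over all 32520 genes, tested or not, 1759 had no count in the brains and more than 3 in the bodies. The reverse, no count in the bodies and more than 3 in the brains, held for 147. Genes already counted above can be among them. A gene with no count in the brains can pass the filter on low counts only through the bodies. Its call can then only be lower in brain, and the reverse holds for genes with no count in the bodies. The bodies had more libraries and more counts per library than the brains, which affects both numbers. The first principal component held 91.2% of the variance and separated the tissues. The biological coefficient of variation was 0.176 among brains and 0.293 among bodies over 15803 genes, so the bodies differed more among themselves. The median log2 fold change of all tested genes was -0.12. With library totals as the only scaling it was 0.36, a shift of 0.49, and 58.4% of calls were then higher in brain, against 47.7% with TMM scaling.

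**Figure D1:**
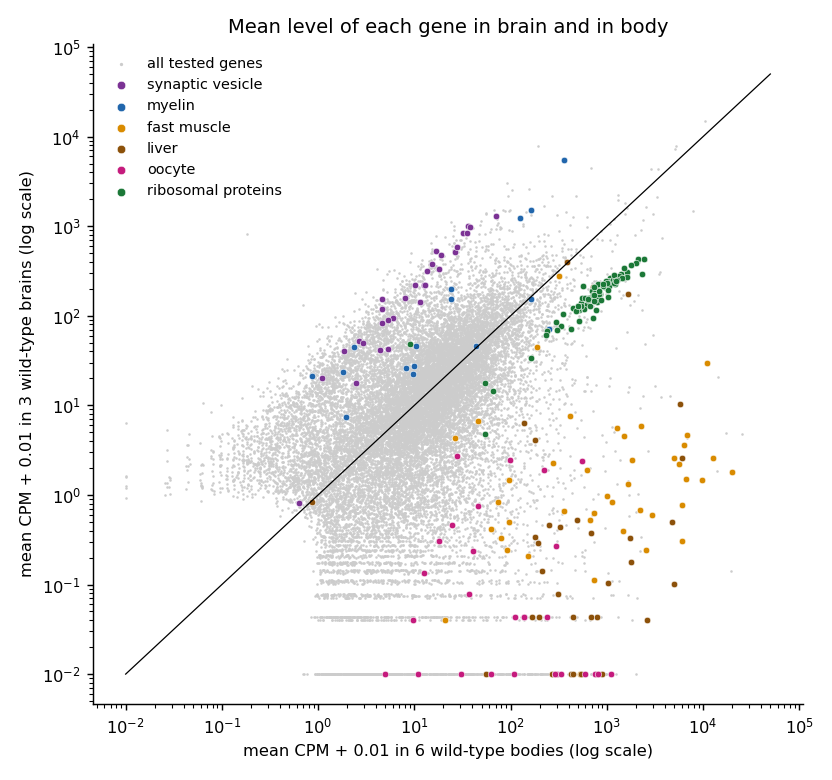
Mean level of each tested gene in the 3 WT brains (vertical axis) and the 6 WT bodies (horizontal axis), in CPM + 0.01 on log scales, with members of 6 gene lists in colour and equal levels on the line. Synaptic vesicle genes lay above the line apart from 1 member, ribosomal protein genes lay in a band below it apart from 1 member, and muscle, liver and oocyte genes reached the lower right, with many at 0 counts in the brains.

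Bodies 3 and 6, and in part body 4, stood apart from bodies 1, 2 and 5. Summed over the 32 synaptic vesicle genes, the brains had 9622, 9675 and 10342 CPM and bodies 1 to 6 had 239, 184, 805, 444, 199.9 and 839 CPM. Growth hormone, gh1 (ENSDARG00000038185), had no count in any brain and 0.0954, 0, 12.7, 15.5, 0 and 10.7 CPM in bodies 1 to 6, so that bodies 3, 4 and 6 alone held it at more than a trace. In oocyte transcripts (28 genes) bodies 3 and 6 were the lowest, with sums of 10.1, 11.1 and 14.0 CPM in brains 1 to 3, against 11573, 8969.9, 2383, 8670.1, 5008 and 1915 CPM in bodies 1 to 6. The 19 digestive enzyme genes of the exocrine pancreas summed to 18.7, 15.8 and 14.5 CPM in brains 1 to 3, against 20435, 28426, 3699.6, 4253, 23062 and 2089 CPM in bodies 1 to 6, high in bodies 1, 2 and 5. The part of these differences in the results was not tested beyond fits that left the libraries out. Fits without bodies 3, 4 and 6 called 16277 genes, and fits without bodies 3 and 6 called 16830. Among the brains, brain 1 had more skin transcript, with epidermal sums of 975, 422 and 406 CPM in brains 1 to 3 against 10563 to 17871 CPM in bodies. Brain 3 had less hox transcript, as described with those genes.

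**Figure D2:**
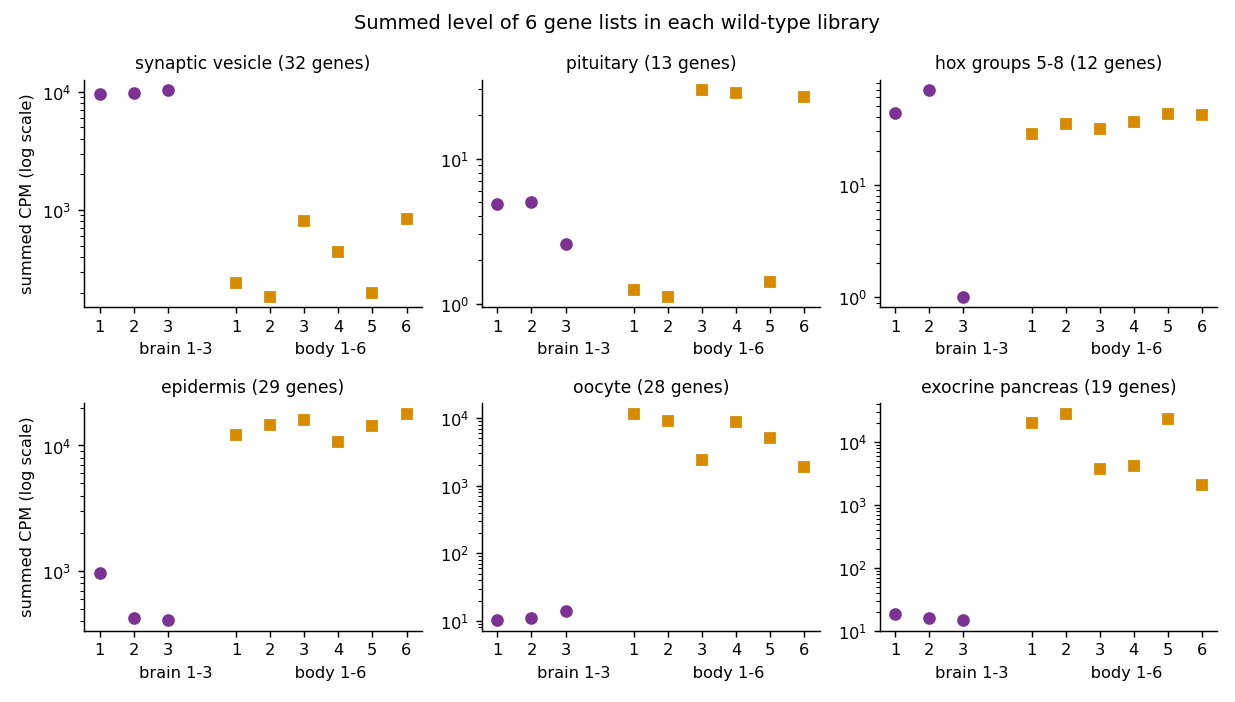
Summed level (CPM, log scale, vertical axis) of 6 gene lists in each WT library, brains 1 to 3 (circles) left of bodies 1 to 6 (squares). Bodies 3 and 6 were highest of the bodies in synaptic vesicle genes and lowest in oocyte and exocrine pancreas genes, and brain 3 was lowest in hox groups 5 to 8.

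Genes of neurons were higher in brain. Of 24 tested neuronal markers, 23 were higher in brain and 0 lower, against 36.8% and 40.3% of all genes, with a median log2 fold change of 3.83. Of 30 genes of the synaptic vesicle cycle, 29 were higher and 0 lower (median 4.31). Both counts were the same without bodies 3 and 6 and without bodies 3, 4 and 6, while the medians were then wider, at 4.75 and 5.41 without bodies 3, 4 and 6. SNAP25 (ENSDARG00000020609), a membrane fusion protein of the presynaptic terminal, had 2876, 3095 and 3057 CPM in the brains and 47.3 to 155 CPM (median 73.6) in the bodies. Even the highest body lay far below the lowest brain, and the log2 fold change was 5.04 ± 0.426 (edgeR adjusted p = 2.25e-06). Its second copy, SNAP25 (ENSDARG00000058117), had 474, 509 and 618 CPM in the brains and 5.24 to 29.7 CPM (median 11.8) in the bodies, a log2 fold change of 5.13 ± 0.552. The SNARE protein vamp1a (ENSDARG00000031283) had 443, 570.4 and 546 CPM in the brains and 17.3 to 47.6 CPM (median 20.1) in the bodies, a log2 fold change of 4.30 ± 0.312. Complexin CPLX1, which clamps fusion, and the vesicle GTPase RAB3A (ENSDARG00000056347) changed by 4.42 and 3.01 on the same scale. ELAVL3, an RNA-binding protein of neurons, had 410.2, 407 and 404 CPM in the brains and 12.04 to 78.8 CPM (median 27.6) in the bodies. The brains agreed within a few CPM, the bodies spread widely without reaching them, and the log2 fold change was 3.43 ± 0.538 (adjusted p = 0.000178). Intermediate filament genes of neurons and glia were higher in brain for 9 of 11 tested genes, and 0 were lower. Among the neurofilaments, which fill large axons, nefla had 281, 405 and 319 CPM in the brains and 22.5 to 39.1 CPM (median 28.7) in the bodies, and nefma had 573, 887 and 690.1 CPM in the brains and 51.9 to 114 CPM (median 69.2) in the bodies. Brain 2 was the highest brain for both.

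**Figure D3:**
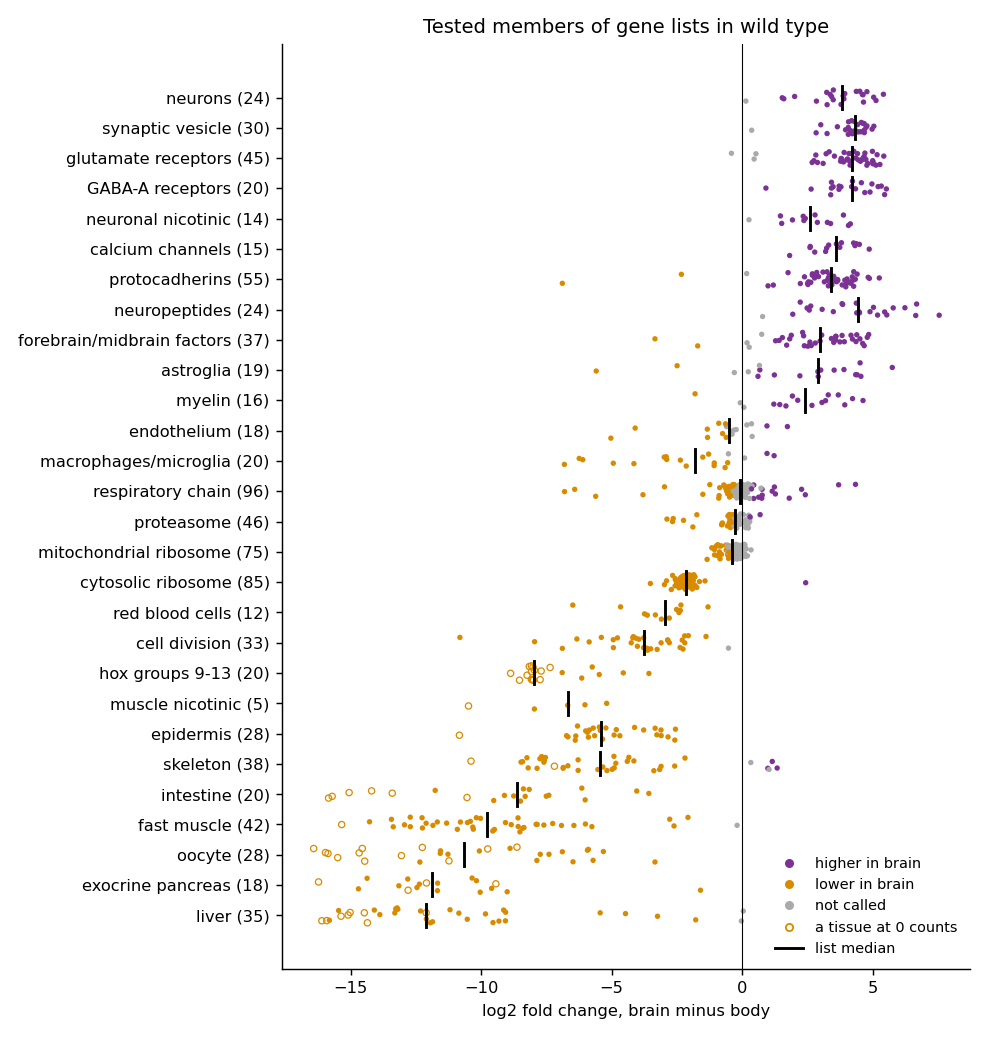
Log2 fold change (brain minus body, horizontal axis) of each tested member of 28 gene lists, with the number tested in brackets. Filled points were called at an adjusted p below 0.05 (purple higher in brain, orange lower) or not called (grey), open circles had 0 counts in a tissue and a fitted value that is not a bound, and black bars mark list medians. Medians of neuronal lists lay to the right of 0, the cytosolic ribosome formed a tight band left of it, and intestine, fast muscle, oocyte, exocrine pancreas and liver lay farthest left.

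Transmitter identity genes followed the neurons. All 12 tested genes of glutamate neurons were higher in brain (median 4.38), among them the cortical-type transcription factor TBR1 with 24.7, 13.7 and 30.5 CPM in the brains and 0.446 to 1.302 CPM (median 0.677) in the bodies. Brain 2 was lowest of the brains for TBR1, and no body approached it (log2 fold change 4.96 ± 0.334, edgeR adjusted p = 4.09e-07). NEUROD2 and NEUROD6 (ENSDARG00000020794), which drive neuronal differentiation, changed by 4.02 and 4.004. Among 16 genes of GABA and glycine neurons, 13 were higher and 2 lower in brain. The glycine transporter SLC6A5 had 75.2, 108 and 76.2 CPM in the brains and 6.02 to 20.1 CPM (median 8.59) in the bodies, and GAD1 (ENSDARG00000093411), which makes GABA, had 19.98, 19.9 and 22.9 CPM in the brains and 1.67 to 3.96 CPM (median 3.24) in the bodies. The members lower in brain were pvalb7, a calcium buffer, with 173, 216 and 188 CPM in the brains and 271 to 423 CPM (median 339.6) in the bodies, and DLX2 (ENSDARG00000017174), a homeobox factor that also acts in the pharyngeal skeleton, with 1.42, 0.801 and 3.96 CPM in the brains and 4.77 to 9.67 CPM (median 6.60) in the bodies. With library totals pvalb7 was not called (-0.35, edgeR adjusted p = 0.0984). Of 17 genes of monoamine and acetylcholine neurons, 11 (64.7%) were higher and 3 (17.6%) lower, against 36.8% and 40.3% of all genes. CHAT, which makes acetylcholine, had 64.4, 77.9 and 60.8 CPM in the brains and 6.29 to 12.4 CPM (median 6.93) in the bodies, and HDC, which makes histamine, had 17.5, 14.8 and 17.5 CPM in the brains and 0.217 to 1.72 CPM (median 0.668) in the bodies. Neither gene overlapped between tissues. Dopa decarboxylase DDC, by contrast, was lower in brain, with 13.2, 13.2 and 15.4 CPM in the brains and 26.8 to 39.8 CPM (median 32.2) in the bodies (log2 fold change -1.23 ± 0.16, adjusted p = 3.89e-05).

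The hydroxylases that open monoamine synthesis split between tissues. Tyrosine hydroxylase TH had 12.1, 8.61 and 11.05 CPM in the brains and 0.334 to 1.93 CPM (median 0.666) in the bodies (log2 fold change 3.68 ± 0.402), and tryptophan hydroxylase TPH2, the neuronal form in mammals, had 16.7, 14.6 and 14.5 CPM in the brains and 0.109 to 1.72 CPM (median 1.15) in the bodies (3.83 ± 0.446). Both were above every body in all brains. The peripheral form TPH1 (ENSDARG00000036082) had 0.913, 0.501 and 0.092 CPM in the brains and 4.06 to 12.6 CPM (median 6.44) in the bodies (-3.84 ± 0.591), while TPH1 (ENSDARG00000029432) had 5.48, 8.11 and 3.50 CPM in the brains and 0.71 to 10.9 CPM (median 5.85) in the bodies and was not called. The second tyrosine hydroxylase gene, th2, was called higher (1.82 ± 0.45), but brain 3 at 3.96, 5.11 and 0.92 CPM in the order of the brains overlapped the bodies at 0.76 to 1.12 CPM (median 0.931).

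Receptors for fast transmitters were higher in brain with few exceptions. The counts were 42 of 45 genes of the glutamate receptor list, 20 of 20 GABA-A receptor subunits and 6 of 6 glycine receptor subunits, with 0 lower in each list and medians of 4.20, 4.21 and 4.33. The glutamate receptor list was matched by symbol and includes 2 genes named GRID2IP, which are not receptor subunits. The NMDA receptor subunit grin2ab had 106, 103 and 96.1 CPM in the brains and 4.12 to 9.44 CPM (median 7.22) in the bodies (log2 fold change 3.91 ± 0.24, edgeR adjusted p = 2.32e-07). The kainate receptor subunit GRIK5 had 42.7, 38.8 and 44.1 CPM in the brains and 1.302 to 3.86 CPM (median 2.202) in the bodies (4.04 ± 0.282). Both kept a wide gap between tissues. GRID2IP (ENSDARG00000095603), a scaffold of the delta receptor of cerebellar Purkinje cells, had 90.5, 75.5 and 99.0 CPM in the brains and 1.91 to 5.26 CPM (median 3.11) in the bodies. The GABA-A subunits gabrb1 and GABRA6 (ENSDARG00000058736), of which GABRA6 marks cerebellar granule cells in mammals, changed by 5.21 and 4.34. Cerebellin CBLN1, which bridges granule cell terminals to that delta receptor, had 92.3, 106 and 88.4 CPM in the brains and 3.26 to 7.91 CPM (median 4.36) in the bodies, and all 20 tested genes of its list of cerebellins and synaptic adhesion molecules were higher in brain. Glycine receptor subunit GLRA1 had 82.2, 91.0 and 67.8 CPM in the brains and 6.29 to 16.1 CPM (median 7.58) in the bodies.

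Nicotinic acetylcholine receptor subunits parted by use. Of 14 tested neuronal subunits 13 were higher in brain and 0 lower, whereas all 5 tested subunits of the muscle endplate were lower. CHRNB2 had 73.1, 74.0 and 75.8 CPM in the brains and 1.90 to 7.61 CPM (median 3.16) in the bodies, and chrna8 had 5.38, 5.51 and 7.18 CPM in the brains and 0.191 to 0.804 CPM (median 0.314) in the bodies, with log2 fold changes of 4.14 ± 0.419 and 3.88 ± 0.389. The endplate subunit CHRNA1 had 0.203, 0.3 and 0.092 CPM in the brains and 43.4 to 60.1 CPM (median 52.2) in the bodies, and CHRNE had 0.406, 0.2 and 0.736 CPM in the brains and 38.1 to 59.14 CPM (median 48.6) in the bodies. Brain levels of these endplate genes stayed below 1 CPM, and the log2 fold changes were -7.96 ± 0.307 and -6.68 ± 0.35 (edgeR adjusted p = 2.66e-08 and 1.01e-07). Of 16 serotonin receptors, 13 were higher and 2 lower. HTR1D had 15.6, 15.0 and 15.6 CPM in the brains and 0.301 to 1.12 CPM (median 0.406) in the bodies, while HTR3A and HTR4, which act in the gut of mammals, were lower with -3.30 and -1.08. Neither call of a lower level held without bodies 3, 4 and 6: HTR4 was not called (-0.84, edgeR adjusted p = 0.0579) and HTR3A did not pass the filter on low counts, which it also did not without bodies 3 and 6. With library totals HTR4 was not called (-0.60, adjusted p = 0.109). All 5 tested dopamine receptors and all 3 tested muscarinic receptors were higher in brain. Among them DRD2 (ENSDARG00000056926) had 10.1, 11.2 and 9.66 CPM in the brains and 0.0954 to 0.913 CPM (median 0.206) in the bodies, and CHRM4 had 59.8, 66.1 and 49.7 CPM in the brains and 0.543 to 6.39 CPM (median 1.67) in the bodies.

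Voltage-gated channels were mostly higher in brain. All 15 tested calcium channel alpha-1 subunits were higher in brain, as were 39 of 45 voltage-gated potassium channels, with 3 lower. CACNA1E had 82.2, 94.1 and 83.4 CPM in the brains and 0.977 to 5.48 CPM (median 2.37) in the bodies (log2 fold change 4.87 ± 0.44), and kcnh3 had 15.7, 16.6 and 20.1 CPM in the brains and 0.223 to 1.22 CPM (median 0.539) in the bodies (4.83 ± 0.366). Every brain exceeded every body for both. The potassium channel genes lower in brain included kcna7, expressed in muscle of mammals, with 0.203, 0.401 and 0.092 CPM in the brains and 1.91 to 6.19 CPM (median 3.85) in the bodies, and kcna6a, with no count in the brains and 2.91 to 7.92 CPM (median 6.51) in the bodies, at least 63.6-fold lower. Inward rectifier potassium channels and those with paired pore domains were mixed, 23 (59.0%) higher and 11 (28.2%) lower of 39, against 36.8% and 40.3% of all genes. KCNK1 had 27.6, 26.4 and 27.1 CPM in the brains and 0.868 to 3.04 CPM (median 2.13) in the bodies, and KCNK5 (ENSDARG00000023587), known from the kidney in mammals, had 0.101, 0.1 and 0.184 CPM in the brains and 6.77 to 13.8 CPM (median 9.26) in the bodies. Of 7 sodium channel alpha subunits, 4 (57.1%) were higher and 3 (42.9%) lower, against 36.8% and 40.3% of all genes. SCN8A (ENSDARG00000018032), which sits at the initial segment of axons, had 129, 163 and 119.7 CPM in the brains and 9.88 to 24.8 CPM (median 12.5) in the bodies. The muscle channel scn4ab had 3.25, 0.701 and 0.552 CPM in the brains and 68.7 to 116 CPM (median 89.1) in the bodies, with brain 1 the highest brain. Their log2 fold changes were 3.22 ± 0.284 and -5.89 ± 0.537 (edgeR adjusted p = 2.56e-06 and 3.78e-06). Its paralog scn4aa had 1 count in the 3 brains together, 261-fold (95% counting interval 46.6 to 10327) lower than in the bodies.

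Protocadherins, adhesion proteins that label single neurons, were higher in brain for 52 of 55 tested genes and lower for 2. pcdh1g2 and pcdh2g28 are clustered genes whose variable exons share constant exons, so their counts are uncertain. pcdh2g28 had 342, 315 and 346 CPM in the brains and 39.1 to 76.4 CPM (median 48.7) in the bodies, and pcdh1g2 changed by 3.27. Lower in brain were PCDH12, a protocadherin of endothelium in mammals, with 1.42, 1.202 and 1.197 CPM in the brains and 4.73 to 9.33 CPM (median 5.86) in the bodies, and pcdh20l, with 1 count in the brains together.

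Peptides of hypothalamic and other neurons were among the genes with the widest gaps. Of 24 tested, 23 were higher in brain and 0 lower (median 4.44). Corticotropin-releasing hormone CRH had 23.7, 23.8 and 25.9 CPM in the brains and 0.111 to 0.71 CPM (median 0.401) in the bodies (log2 fold change 5.79 ± 0.31, edgeR adjusted p = 1.15e-07). gnrh2, the midbrain form of gonadotropin-releasing hormone, had 9.23, 7.91 and 8.01 CPM in the brains and 0 to 0.107 CPM (median 0.0979) in the bodies (6.68 ± 0.407, adjusted p = 2.2e-07). The opioid precursor penka had 55.0, 61.9 and 56.2 CPM in the brains and 8.25 to 11.7 CPM (median 9.49) in the bodies (2.57 ± 0.141), a narrower gap with tight values in both tissues. Chosen after their values were seen, the oxytocin gene oxt had 129, 66.5 and 199 CPM in the brains and 0 to 3.04 CPM (median 0) in the bodies, and the vasopressin gene avp had 4.67, 3.204 and 6.35 CPM in the brains and 0 to 0.215 CPM (median 0) in the bodies. Brain 3 was highest of the brains for both and body 3 was the highest of the bodies for oxt. Thyrotropin-releasing hormone TRH had 30.6, 41.4 and 40.6 CPM in the brains and 0.217 to 1.42 CPM (median 0.76) in the bodies. Melanin-concentrating hormone genes went another way in brain 3: pmchl had 29.01, 12.5 and 0.184 CPM in brains 1 to 3 and 0 to 2.74 CPM (median 0.402) in the bodies, so the tissues overlapped (log2 fold change 3.85 ± 1.2, adjusted p = 0.0133). It was not called without brain 1 (2.72, adjusted p = 0.102) or by DESeq2 (adjusted p = 0.0906). PMCH, which did not pass the filter on low counts, had 11.4, 9.41 and 0.092 CPM in brains 1 to 3 and 0 to 1.01 CPM (median 0.104) in the bodies.

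Pituitary genes were mostly low, with sums of 4.87, 5.01 and 2.58 CPM in the brains and 1.11 to 29.6 CPM in the bodies. Of 13 genes matched, 5 passed the filter on low counts and 3 were called lower in brain, and 0 were without body 3, body 4 or body 6 alone or without all of these. Among all genes tested, 40.3% were called lower. Named after their values were seen, the proopiomelanocortin gene POMC and prolactin followed gh1. POMC had 3.96, 3.80 and 1.56 CPM in the brains and 0.191, 0.223, 6.29, 4.62, 0.217 and 6.77 CPM in bodies 1 to 6. Prolactin, prl, had 0.101, 0.2 and 0.46 CPM in the brains and 0, 0, 3.25, 1.81, 0 and 3.65 CPM in bodies 1 to 6. Bodies 3, 4 and 6 again were those with more, and without them POMC was called higher in brain (log2 fold change 3.82, edgeR adjusted p = 0.000142).

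Transcription factors that mark forebrain and midbrain territories were higher in brain for 32 of 37 tested genes and lower for 2 (median 2.98). The midbrain-hindbrain boundary factor en1b had 18.5, 20.6 and 28.4 CPM in the brains and 3.12 to 5.68 CPM (median 4.42) in the bodies (log2 fold change 2.35 ± 0.233, edgeR adjusted p = 5.61e-06), and ZIC2 (ENSDARG00000037178) had 5.98, 5.61 and 7.64 CPM in the brains and 0.217 to 0.967 CPM (median 0.406) in the bodies (3.74 ± 0.367). Neither gene overlapped between tissues, and brain 3 was the highest of the brains for both. The exceptions were LHX8, which also acts in oocytes of mammals, with 3.14, 0.601 and 4.42 CPM in the brains and 44.4, 41.1, 11.8, 37.4, 21.4 and 10.8 CPM in bodies 1 to 6, and the DLX2 gene given with the GABA neurons. Bodies 3 and 6 had the least LHX8. They also had the least of the oocyte list, but LHX8 is itself a member of that list. LHX8 was called in neither mutant line (M -0.40, edgeR adjusted p = 0.437, and S -0.83, adjusted p = 0.0778). Among SOX factors 18 of 24 were higher in brain and 2 lower, against 36.8% and 40.3% of all genes. SOX2, which keeps neural stem cells in division, had 37.4, 42.9 and 46.3 CPM in the brains and 2.96 to 8.22 CPM (median 4.61) in the bodies, and SOX11 (ENSDARG00000095743), a factor of immature neurons, had 186, 151 and 131 CPM in the brains and 24.3 to 43.4 CPM (median 34.5) in the bodies.

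Posterior hox genes were lower in brain as a block, while most tested genes of the more anterior groups were not called. Of 12 tested genes of paralog groups 1 to 4, 1 was higher in brain and 1 lower. Of 11 in groups 5 to 8, 0 were higher and 3 lower, and of 20 in groups 9 to 13, all 20 were lower. Of 23 genes matched in groups 9 to 13, 16 had no count in any brain. Among the 20 tested, 14 had none, passed the filter through the bodies alone and could only be called lower. Group 10 had 0 counts in the brains and 1022 in the bodies, and group 11 had 0 in the brains and 816 in the bodies. HOXC10 had no count in the brains and 4.26 to 7.49 CPM (median 5.97) in the bodies, at least 60.6-fold lower. HOXB9 had 0.304, 0.1 and 0 CPM in the brains and 7.15 to 13.1 CPM (median 10.6) in the bodies (log2 fold change -6.15 ± 0.533, edgeR adjusted p = 2.19e-06). The median of groups 9 to 13 was -5.12 with genes at 0 counts set to their bound. HOXC4 was higher in brain, with 4.46, 9.11 and 1.56 CPM in the brains and 0.703 to 1.52 CPM (median 0.865) in the bodies (2.38 ± 0.479), and hoxc3a lower, with 1.83, 3.204 and 0 CPM in the brains and 12.1 to 16.7 CPM (median 14.7) in the bodies (-3.10 ± 0.661). HOXC4 was not called in the M libraries (0.49, edgeR adjusted p = 0.112) but was in the S libraries (0.93, adjusted p = 0.000665). The members of groups 5 to 8 lower in brain were HOXC8, HOXB7 and HOXC6 (ENSDARG00000101954), with changes of -5.05, -3.06 and -2.95.

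Brain 3 differed from the other brains in the anterior groups. Group 5 summed to 33.4, 48.0 and 0.644 CPM in brains 1 to 3 and to 9.06 to 17.4 CPM in bodies, so brains 1 and 2 lay above every body and brain 3 below. Group 3 summed to 25.7, 35.1 and 9.39 CPM in brains 1 to 3 and to 30.0 to 48.3 CPM in bodies. HOXB5 (ENSDARG00000013057) had 17.4, 19.6 and 0.184 CPM in brains 1 to 3 and 3.53 to 9.56 CPM (median 6.60) in the bodies and was not called (log2 fold change 0.95 ± 0.753). Without brain 3 it was called higher in brain (1.54, edgeR adjusted p = 0.00124). It was chosen after its values were seen. Without brain 3, 3 members of groups 5 to 8 were lower in brain and more than that were higher.

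**Figure D4:**
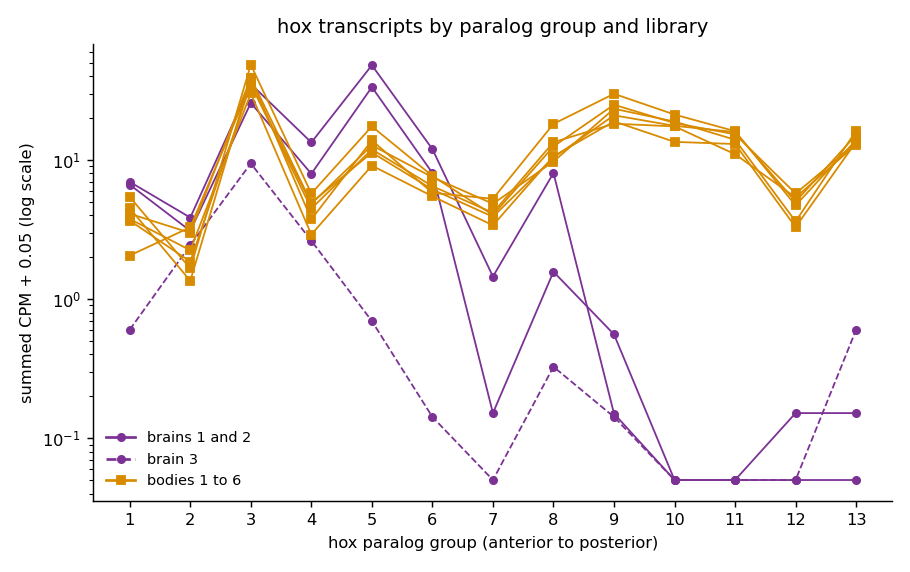
Summed level (CPM + 0.05, log scale, vertical axis) of hox genes by paralog group from anterior (1) to posterior (13), for brains 1 and 2 (solid line with circles), brain 3 (dashed) and bodies 1 to 6 (squares). Lines of brains and bodies cross up to group 6, every brain lay below every body from group 7 on, and in groups 10 and 11 the brains had no count.

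Astroglial and myelin genes were mostly higher in brain. Of 19 tested astroglial markers 14 were higher and 2 lower (median 2.90). S100B, a calcium-binding protein of glia, had 994, 1043 and 811 CPM in the brains and 31.3 to 50.2 CPM (median 41.2) in the bodies. The bodies lay close together and far below, with a log2 fold change of 4.55 ± 0.167 (edgeR adjusted p = 2.66e-08). SLC1A2 (ENSDARG00000102453), the glutamate transporter of astroglia, had 1380.1, 1586 and 1636 CPM in the brains and 22.2 to 129 CPM (median 49.5) in the bodies (4.52 ± 0.561). The potassium channel KCNJ10 (ENSDARG00000105022) had 76.4, 222 and 165 CPM in the brains and 1.302 to 4.62 CPM (median 2.57) in the bodies (5.75 ± 0.411), and the gap junction gene GJA1 had 781, 1027 and 962 CPM in the brains and 47.2 to 82.7 CPM (median 55.9) in the bodies (3.90 ± 0.199). GFAP, the filament protein of radial glia and of some peripheral glia, was less separated, with 139.8, 203 and 97.5 CPM in the brains and 46.9 to 79.3 CPM (median 60.6) in the bodies (1.23 ± 0.235, adjusted p = 0.000631). The GFAP call did not repeat in the mutant lines. It was called lower in brain in the M libraries (-0.285, edgeR adjusted p = 0.0473) and not called in the S libraries (-0.038, adjusted p = 0.785). ALDH1L1, a folate enzyme abundant in liver as well, went against the list with 15.2, 15.3 and 12.3 CPM in the brains and 343 to 1042 CPM (median 742) in the bodies (-5.59 ± 0.464), as did the prostaglandin synthase gene ptgdsb.1 (-2.49 ± 0.298). The water channel gene AQP4, named after its values were seen, did not pass the filter, with 0, 0.2 and 0 CPM in the brains and 0.191 to 0.644 CPM (median 0.33) in the bodies.

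Among 16 tested myelin genes 13 were higher in brain and 1 lower (median 2.4). Myelin basic protein mbpa had 4163, 7054 and 5310.0 CPM in the brains and 296 to 490.3 CPM (median 319.6) in the bodies, a log2 fold change of 3.93 ± 0.22 (edgeR adjusted p = 1.4e-07). Brain 2 was the highest of the brains, and no body came near the lowest brain. Given after their values were seen, the second copy mbpb, with 141, 175 and 144 CPM in the brains and 129 to 195 CPM (median 160.1) in the bodies, and UGT8, which makes myelin lipid, with 44.8, 48.5 and 43.0 CPM in the brains and 34.5 to 56.0 CPM (median 42.1) in the bodies, were not called. cnp was lower in brain, with 67.6, 81.4 and 64.3 CPM in the brains and 352, 291, 132, 333, 250.5 and 133 CPM in bodies 1 to 6, the least in bodies 3 and 6. Genes of Schwann cells, the myelinating cells of peripheral nerve, were lower in brain for 6 of 9 and higher for S100B and SOX10, which oligodendrocytes or astroglia also express. Among all genes, 40.3% were lower and 36.8% higher. Periaxin prx had 6.80, 4.21 and 6.26 CPM in the brains and 114 to 283 CPM (median 183) in the bodies (-4.996 ± 0.359), and pmp22a had 4.77, 2.80 and 1.47 CPM in the brains and 66.6 to 97.9 CPM (median 89.6) in the bodies (-4.85 ± 0.349).

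Muscle genes were among those with the widest gaps lower in brain. Of 42 tested fast muscle genes 41 were lower in brain and 0 higher (median -9.79). Of 14 slow muscle genes 13 were lower, and all 16 tested heart genes were lower (median -6.04 at the bound). Among these heart genes, 7 had no count in the brains and could only be called lower. The fast myosin heavy chain myha had 0.304, 0 and 0.092 CPM in the brains and 14016 to 26849 CPM (median 19543) in the bodies, a log2 fold change of -17.07 ± 0.669 (edgeR adjusted p = 2.73e-08). Cardiac-type alpha-actin actc1b had 8.93, 4.21 and 1.105 CPM in the brains and 18327 to 29549 CPM (median 27669) in the bodies (-12.39 ± 0.787), the calcium buffer pvalb2 had 1.62, 3.30 and 0.46 CPM in the brains and 14046 to 22462 CPM (median 22031) in the bodies (-13.44 ± 0.705), and creatine kinase ckmb had 10.6, 1.302 and 2.03 CPM in the brains and 4649.6 to 8747 CPM (median 6992) in the bodies (-10.52 ± 0.859). Brain 1 was highest of the brains for actc1b and ckmb, whereas brain 2 was highest for pvalb2. Tropomyosin tpma had 31.1, 30.4 and 28.6 CPM in the brains and 8372 to 12967 CPM (median 11405) in the bodies (-8.52 ± 0.259), with almost equal brains. The calcium pump atp2a1l had 2.84, 0.901 and 0.736 CPM in the brains and 4463 to 7987 CPM (median 7125) in the bodies (-12.11 ± 0.602). Near-identical myosin heavy chain and actin genes can share reads, so values of single members are uncertain. MYH6 (ENSDARG00000114031), an atrial myosin, had no count in the brains and 85.5 to 147 CPM (median 108) in the bodies, at least 1169-fold lower. Slow myosin smyhc2 had 1.01, 0.1 and 0.644 CPM in the brains and 529.9 to 930.4 CPM (median 695) in the bodies (-10.18 ± 0.524). All 14 tested smooth muscle genes were lower too, with acta2 at 11.7, 11.3 and 10.22 CPM in the brains and 119 to 257 CPM (median 174) in the bodies (-4.05 ± 0.284).

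Most families of glycolytic enzymes had members higher and members lower in brain. Of all tested genes 36.8% were called higher and 40.3% lower, so calls both ways are common in any group of genes. Whether these families split more often than other genes was not tested. Aldolase ALDOC (ENSDARG00000019702) had 2299, 2675 and 2586 CPM in the brains and 57.6 to 171 CPM (median 83.5) in the bodies (log2 fold change 4.62 ± 0.373). By contrast ALDOA (ENSDARG00000034470), a muscle-type gene, had 4.97, 3.104 and 5.25 CPM in the brains and 389 to 703 CPM (median 618) in the bodies (-7.01 ± 0.328). The other ALDOA copy, ALDOA (ENSDARG00000011665), was not called, with 409, 450.0 and 488 CPM in the brains and 409.7 to 805 CPM (median 526) in the bodies. Glyceraldehyde phosphate dehydrogenase split likewise: GAPDHS had 2005, 2208 and 2325 CPM in the brains and 196 to 362 CPM (median 241) in the bodies (3.03 ± 0.218), and GAPDH, a common control gene, had 16.9, 4.11 and 6.63 CPM in the brains and 1756 to 2823 CPM (median 2219) in the bodies (-7.92 ± 0.536, edgeR adjusted p = 4.92e-07). Among enolases eno2, the neuronal form, had 502, 569 and 634 CPM in the brains and 11.3 to 48.1 CPM (median 20.9) in the bodies (4.37 ± 0.43), and ENO3, the muscle form, had 24.2, 17.8 and 18.7 CPM in the brains and 863 to 1455 CPM (median 1018) in the bodies (-5.74 ± 0.272). No pair overlapped between tissues. Hexokinase HK1 changed by 3.03, against -4.66 for HK2 and -2.82 for HKDC1. Phosphoglycerate mutase pgam1b changed by 2.43 and PGAM2 by -6.78, while pgam1a was not called (-0.0014 ± 0.143). Pyruvate kinase PKM (ENSDARG00000099730) had 729, 864 and 883 CPM in the brains and 175 to 265 CPM (median 223) in the bodies (1.89 ± 0.17), and its copy PKM (ENSDARG00000099860) had 0.304, 0.3 and 0.092 CPM in the brains and 116 to 289 CPM (median 208) in the bodies (-9.71 ± 0.504). Phosphofructokinase genes PFKP (ENSDARG00000028000) and PFKM (ENSDARG00000014179) changed by 3.82 and -6.002. Lactate dehydrogenase differed little, with 0.64 for LDHA, 0.69 for LDHB and -0.73 for ldhbb, which was not called with library totals (-0.25, edgeR adjusted p = 0.278). Neither of the 2 tested triosephosphate isomerase genes was called, TPI1 (ENSDARG00000040988) at 0.013 ± 0.15 (adjusted p = 0.94) and TPI1 (ENSDARG00000025012) at 1.01 ± 0.465 (adjusted p = 0.0699). With library totals both were called higher, at 0.51 and 1.498, and the copy named last was also called higher without body 1 (1.202, adjusted p = 0.0386) and without bodies 3 and 6 (0.58, adjusted p = 0.0121).

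Other families also had members on both sides, beside the 36.8% higher and 40.3% lower of all genes. Brain creatine kinase CKB (ENSDARG00000043257) had 1939, 2265 and 2343 CPM in the brains and 406 to 564 CPM (median 467) in the bodies (log2 fold change 2.198 ± 0.134), while a second gene of that symbol, CKB (ENSDARG00000069752), had 11.9, 13.9 and 11.4 CPM in the brains and 190.3 to 241 CPM (median 233) in the bodies (-4.16 ± 0.17). Mitochondrial creatine kinase CKMT1B changed by 0.85, and CKMT2 (ENSDARG00000039929), its muscle partner, had 2 counts in the brains together. AMP deaminase AMPD2 (ENSDARG00000029952) had 139, 116 and 123 CPM in the brains and 5.57 to 12.99 CPM (median 7.44) in the bodies (3.84 ± 0.254), and AMPD1, the muscle form, had 1.83, 1.80 and 2.03 CPM in the brains and 168 to 301 CPM (median 244) in the bodies (-7.01 ± 0.282). Of 4 glycogen phosphorylase genes 1 was higher in brain and 3 were lower. The 1 higher, PYGM (ENSDARG00000013317), changed by 3.41, and the liver form PYGL changed by -5.61. In the sodium pump, 9 of 16 subunits (56.25%) were higher in brain and 6 (37.5%) lower, the share lower being near the 40.3% of all genes. The neuronal alpha-3 subunit atp1a3a, chosen after its values were seen, had 1306, 1320.5 and 1425 CPM in the brains and 15.0 to 108 CPM (median 42.3) in the bodies (4.61 ± 0.643), and atp1a1a.4 had 0.203, 0 and 0.46 CPM in the brains and 412 to 734 CPM (median 535) in the bodies (-11.17 ± 0.552, edgeR adjusted p = 7.6e-08). Of 6 plasma membrane calcium pumps 5 were higher in brain, for instance atp2b2 with 366, 478 and 446 CPM in the brains and 6.13 to 28.8 CPM (median 13.8) in the bodies. Cytochrome oxidase subunits also had tissue forms: cox6a1 changed by 0.75 and COX6A1, a separate gene in the name table, by -6.81, and COX4I2 changed by 1.80 and cox4i1l by -3.80. Neuroglobin NGB had 134, 93.1 and 127 CPM in the brains and 1.23 to 7.71 CPM (median 2.80) in the bodies (5.05 ± 0.462), and myoglobin mb had 1.01, 0.401 and 0.552 CPM in the brains and 81.2 to 144 CPM (median 95.7) in the bodies (-7.29 ± 0.362).

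**Figure D5:**
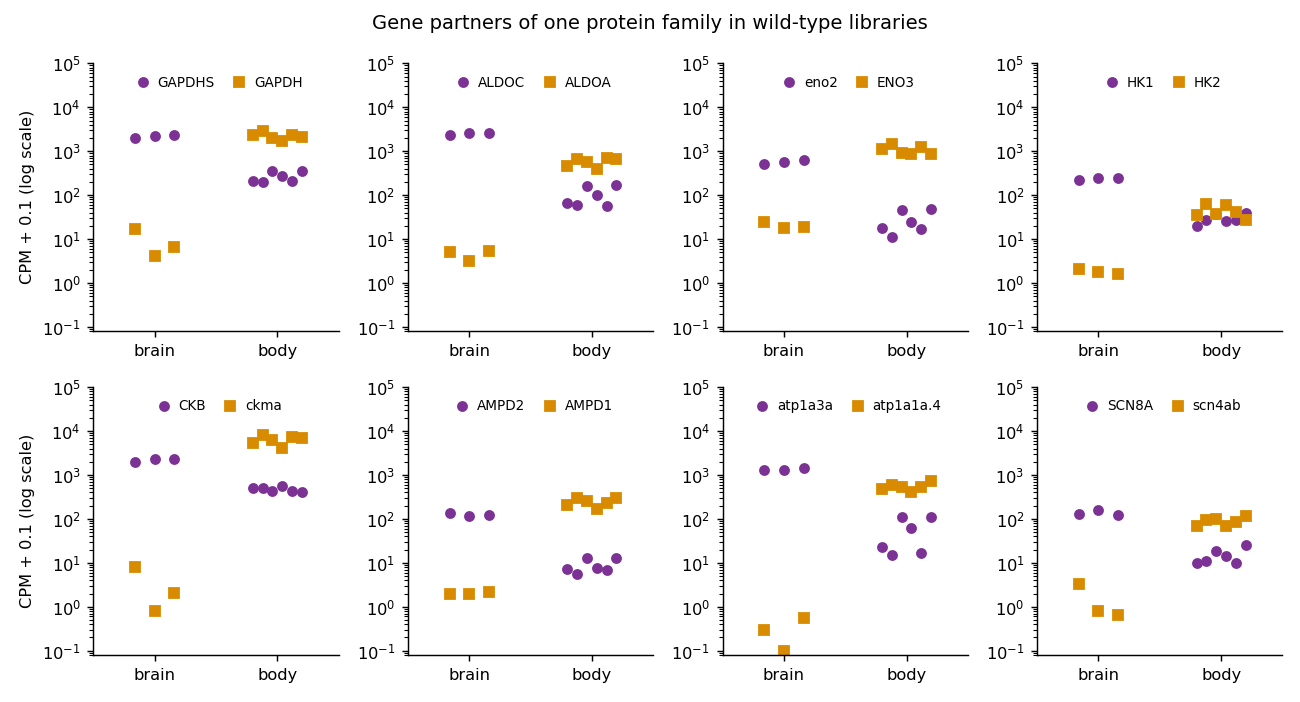
Level (CPM + 0.1, log scale, vertical axis) of 8 pairs of related genes in the 3 WT brains (left) and 6 WT bodies (right), circles for the member higher in brain and squares for the member lower in brain. The pairs were picked to join a member higher in brain with a member lower in brain, so the opposite directions in each panel follow from that choice. Neither gene of any pair overlapped between tissues. Among all tested genes, every brain lay above every body for 36% and below every body for 37%. Members of these families that were not called are not shown. For symbols with several genes, the copies are those described in the text, and ALDOA is the copy that was lower in brain. Heights of different genes are not comparable, because counts depend on transcript length.

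Liver, gut and exocrine pancreas genes were far lower in brain than in body. The liver genes summed to 1113, 750.4 and 571 CPM in the brains and 35501 to 46609 CPM in the bodies, and 8 of them had no count in any brain. All but 2 of 35 tested liver genes were lower in brain (median -11.53 with genes at 0 counts set to their bound), as were all 20 intestinal and all 18 exocrine pancreas genes tested. The 8 liver genes, 6 of the intestinal and 4 of the pancreas genes had no count in the brains and could only be called lower. fabp10a, the liver fatty acid binding protein of fish, had 1 count in the 3 brains together and 1432 to 3718 CPM (median 2751) in the bodies, 79765-fold (95% counting interval 14316 to 3150590.0) lower. Prothrombin f2 had 0.406, 0.601 and 0.276 CPM in the brains and 297 to 405 CPM (median 316) in the bodies (log2 fold change -9.55 ± 0.278, edgeR adjusted p = 1.87e-08), and fetuin fetub had 0.203, 0.401 and 0.368 CPM in the brains and 1349.9 to 2183 CPM (median 1650.0) in the bodies (-12.32 ± 0.354). The bodies were close to each other for both. The ileal bile acid carrier FABP6 had no count in the brains and 492 to 1039.6 CPM (median 726) in the bodies, at least 7660.0-fold lower, whereas FABP2, its relative of the upper gut, had 15.3, 17.3 and 16.1 CPM in the brains and 829 to 1344 CPM (median 999) in the bodies (-6.02 ± 0.235). NPC1L1, the intestinal cholesterol transporter of mammals, had 0.101, 0.2 and 0.184 CPM in the brains and 139 to 215 CPM (median 179) in the bodies (-9.98 ± 0.298). The trypsin gene prss1 had 1.42, 1.602 and 1.29 CPM in the brains and 2462, 3690.1, 448, 548, 2706 and 219 CPM in bodies 1 to 6, where bodies 1, 2 and 5 held most (log2 fold change -10.18 ± 1.33). Endocrine pancreas markers divided, 7 (53.8%) higher and 6 (46.2%) lower in brain, against 36.8% and 40.3% of all genes. They summed to 878, 919 and 942 CPM in the brains and 139.5 to 212 CPM in the bodies. Insulin, ins, had 0.203, 0 and 0.368 CPM in the brains and 44.8 to 75.0 CPM (median 56.4) in the bodies (-8.16 ± 0.452), while the secretory granule protein SCG3, common to neurons and islet cells, had 321, 333 and 290.0 CPM in the brains and 17.3 to 40.5 CPM (median 24.1) in the bodies (3.52 ± 0.259). Of 30 tested cytochrome P450 genes of family 2, 25 were lower and 2 higher. Kidney genes were lower for 17 of 23, and gill and ionocyte genes for 10 of 12. The kidney list matched 26 genes from 18 terms, with 7 genes named KCNJ1, so its count is not one of separate markers. The 2 gill and ionocyte genes higher in brain were both copies of ATP6V1A, a subunit of the proton pump that also acidifies synaptic vesicles: ATP6V1A (ENSDARG00000034534) had 382, 395 and 401 CPM in the brains and 57.4 to 82.2 CPM (median 66.1) in the bodies, and ATP6V1A (ENSDARG00000076318) changed by 3.02.

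Most genes of skin, skeleton and fat were lower as well. All 28 tested epidermal genes were lower in brain (median -5.39), and the count was the same without brain 1. Keratin krt4 had 32.9, 6.21 and 9.20 CPM in the brains and 1355 to 2147 CPM (median 1655) in the bodies (log2 fold change -6.73 ± 0.621), with brain 1 highest of the brains, and TP63, a factor that stratified epithelium needs, had 0.811, 0.901 and 0.644 CPM in the brains and 34.4 to 75.2 CPM (median 40.4) in the bodies (-5.85 ± 0.373, edgeR adjusted p = 2.87e-07). KRT222 was the keratin gene higher in brain, with 27.7, 34.5 and 30.7 CPM in the brains and 6.90 to 13.3 CPM (median 10.3) in the bodies. Of 38 genes of bone, cartilage and scale, 33 were lower and 3 higher, and of 56 collagen genes 53 were lower and 2 higher. COL5A2 had 17.1, 16.5 and 16.6 CPM in the brains and 643 to 932 CPM (median 775) in the bodies (-5.53 ± 0.195), and IFITM5, a bone protein in mammals, had 0.101, 0.1 and 0.184 CPM in the brains and 42.9 to 53.9 CPM (median 51.3) in the bodies (-8.44 ± 0.253). The cartilage factor SOX9, which glia also express, was higher in brain for both its copies, with 1.15 for SOX9 (ENSDARG00000003293) and 0.98 for SOX9 (ENSDARG00000043923). The collagens higher in brain were COL14A1, with 49.2, 52.2 and 49.2 CPM in the brains and 15.2 to 27.5 CPM (median 15.5) in the bodies, and col28a1a. Of 32 claudins 23 were lower and 6 higher, against 40.3% and 36.8% of all genes. Among those higher was cldnk of myelin, with 112, 201 and 149 CPM in the brains and 19.1 to 31.1 CPM (median 22.5) in the bodies. Of 15 tested genes of fat tissue 12 were lower in brain, 1 was higher and 2 were not called. Adiponectin ADIPOQ (ENSDARG00000100086), a hormone of fat cells, had 0.304, 0.3 and 0.276 CPM in the brains and 9.24 to 12.5 CPM (median 10.7) in the bodies (-5.15 ± 0.27).

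Most blood and immune markers were lower in brain. All 12 tested red cell genes and all 8 neutrophil genes were lower, with medians of -2.94 and -1.40. The alpha-globin hbaa1 had 155, 133 and 105 CPM in the brains and 1309.5 to 2177 CPM (median 1777) in the bodies (log2 fold change -3.74 ± 0.221, edgeR adjusted p = 1.87e-07), so red cell transcript was in every library. The globin genes are near-identical copies, and counts of single members are uncertain. Lymphocyte genes were lower for 12 of 16 and higher for 1, against 40.3% and 36.8% of all genes. The 19 genes matched in that list summed to 607, 526 and 456 CPM in the brains and 520 to 662 CPM in the bodies, so the sums overlapped between tissues. The recombinase RAG1 of developing lymphocytes had 0.406, 0.3 and 0.552 CPM in the brains and 58.9 to 124 CPM (median 74.7) in the bodies (-7.61 ± 0.429). The member higher in brain was GATA3, which neurons also use, with 53.4, 67.5 and 72.9 CPM in the brains and 12.04 to 33.0 CPM (median 17.7) in the bodies (1.62 ± 0.33). GATA3 was not called in the M libraries (0.77, edgeR adjusted p = 0.069) but was in the S libraries (0.37, adjusted p = 0.007). Of 20 genes shared by microglia and macrophages, 16 were lower and 2 higher. This list had 15 terms but 24 matched genes, because a term took in every gene with its symbol, and 8 genes are named MFAP4. The count is thus not one of separate markers. Apolipoprotein apoeb, abundant in microglia but also in skin and liver, had 252, 229 and 183 CPM in the brains and 933 to 1455 CPM (median 1120.3) in the bodies (-2.37 ± 0.201). The 2 higher in brain were csf1rb, a receptor that microglia need, with 8.82, 9.51 and 4.51 CPM in the brains and 2.01 to 4.83 CPM (median 3.06) in the bodies (1.22 ± 0.325, adjusted p = 0.0054), and havcr1 with 8.22, 7.71 and 7.55 CPM in the brains and 2.94 to 5.44 CPM (median 4.02) in the bodies (0.95 ± 0.234, adjusted p = 0.00338). Brain 3 overlapped the bodies for csf1rb.

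Vessel markers and genes of the blood-brain barrier went both ways. Of 18 endothelial genes 8 were lower, 2 higher and 8 not called, a share lower that is close to the 40.3% of all genes. The median was -0.40 relative to all genes. With library totals as the only scaling, 5 were higher and 4 lower. Genes of fenestrated vessels had the widest gap, with plvapb at 2.03, 2.303 and 1.197 CPM in the brains and 45.8 to 73.3 CPM (median 61.2) in the bodies (-5.03 ± 0.26) and plvapa at -4.10 ± 0.237 (edgeR adjusted p = 1.66e-07). flt1 and tek, receptors for vessel growth factors, were higher, with 27.0, 24.8 and 27.0 CPM for flt1 in the brains and 5.44 to 10.04 CPM (median 8.15) in the bodies (1.73 ± 0.216). kdrl, a defining vessel marker added after its values were seen, had 74.0, 66.5 and 67.3 CPM in the brains and 43.1 to 62.7 CPM (median 56.8) in the bodies and was not called (0.36 ± 0.157, adjusted p = 0.0582). It was just called without body 5 or body 6 (0.40 and 0.39). Of 12 barrier genes 5 (41.7%) were higher and 6 (50%) lower, against 36.8% and 40.3% of all genes. With library totals 5 were higher and 4 lower. The glucose carrier SLC2A1 (ENSDARG00000001437) had 60.5, 84.0 and 70.8 CPM in the brains and 0.977 to 2.84 CPM (median 2.03) in the bodies (5.20 ± 0.272, adjusted p = 1.01e-07). Its copy SLC2A1 (ENSDARG00000007412), chosen after its values were seen, had 16.4, 13.3 and 13.4 CPM in the brains and 16.8 to 30.3 CPM (median 21.6) in the bodies (-0.67 ± 0.222). That copy was not called without brain 2 or without brain 3 (-0.61 and -0.62). The thyroid hormone carrier SLCO1C1 had 20.2, 14.2 and 13.2 CPM in the brains and 2.36 to 4.86 CPM (median 4.02) in the bodies (2.06 ± 0.244), and the efflux pump ABCB4, also of liver and gut, had 51.01, 53.5 and 44.2 CPM in the brains and 283 to 415 CPM (median 371) in the bodies (-2.89 ± 0.17).

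Germ cell and dividing cell transcripts were low in brain. All 28 oocyte genes were lower, and 12 of them had no count in any brain (median -9.11 with these at their bound). Those 12 could only be called lower. The egg coat gene zp2.1 had no count in the brains and 1995, 1627, 468, 1386, 829.7 and 362 CPM in bodies 1 to 6, at least 11505-fold lower. zp3b of the same coat had 2.13, 2.203 and 2.76 CPM in the brains and 979, 791, 179.9, 788, 433 and 161 CPM in bodies 1 to 6 (log2 fold change -7.87 ± 0.837, edgeR adjusted p = 1.1e-05). Bodies 3 and 6 were lowest for both, yet far above the brains. Yolk precursor genes of the liver were near 0 in the same bodies: vtg5 had 1 count in the brains together and 0.904 to 4.58 CPM (median 3.86) in the bodies. Of 7 vitellogenin genes 2 passed the filter, and 1 of them was called higher and 1 lower in brain. Of 14 tested testis genes 7 were lower in brain and 4 higher, not far from the shares of all genes. Among those higher was DNAH1, an axonemal dynein that sperm share with motile cilia, with 16.3, 14.7 and 11.5 CPM in the brains and 1.95 to 5.05 CPM (median 2.69) in the bodies (2.26 ± 0.272). Of 33 cell division genes 32 were lower in brain and 0 higher (median -3.78). They summed to 194, 202 and 177 CPM in brains 1 to 3. In bodies 1 to 6 the sums were 3646, 2983, 1185, 3523, 2417 and 1011 CPM. Bodies 3 and 6 were thus lowest, as they were for oocyte genes. How much of the body level came from germ cells was not tested. The replication helicase MCM2 had 8.11, 8.11 and 6.63 CPM in the brains and 67.9 to 148 CPM (median 109) in the bodies (-3.78 ± 0.286), and mki67, a marker of cycling cells, had 10.95, 12.8 and 7.27 CPM in the brains and 56.2 to 95.6 CPM (median 74.8) in the bodies (-2.85 ± 0.257, adjusted p = 2.96e-06). The brains were thus low but not at 0 for both.

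Ribosomal protein genes moved as a block. Of 85 tested genes of the cytosolic ribosome 84 were lower in brain (median -2.16), with the same count under library totals. rps20 of the small subunit had 104, 93.2 and 89.4 CPM in the brains and 614 to 793 CPM (median 724) in the bodies (log2 fold change -2.90 ± 0.144, edgeR adjusted p = 7.52e-08), and RPS2 had 336, 274 and 266 CPM in the brains and 1956 to 2643 CPM (median 2402) in the bodies (-2.98 ± 0.17). For all 84 of these, every brain lay below every body. The translation elongation factor eef1a2, the form of adult neurons in mammals, had 108, 157 and 126 CPM in the brains and 5.44 to 8.42 CPM (median 6.88) in the bodies (4.22 ± 0.171, adjusted p = 2.76e-08). The mitochondrial ribosome differed less: 25 of 75 genes (33.3%) were lower and 0 higher, against 40.3% and 36.8% of all genes. The median was -0.25 relative to all genes, but 4 were lower and 14 higher with library totals. The count lower was 16 without brain 1 and 48 without bodies 3 and 6. Respiratory chain genes encoded in the nucleus were lower for 28 (29.2%) and higher for 16 (16.7%) of 96, both under the shares of all genes. Their median was 0.055 relative to all genes, and 10 were lower and 56 higher with library totals. Proteasome genes were lower for 18 and higher for 2 of 46, against 40.3% and 36.8% of all genes, so the share lower (39.1%) was near that of all genes. With library totals 6 were lower and 17 higher. The lower ones included PSMB8, a subunit of the immunoproteasome, with 4.77, 2.203 and 1.38 CPM in the brains and 12.8 to 27.7 CPM (median 19.98) in the bodies (-2.88 ± 0.409). SDHD (ENSDARG00000055712), a subunit of succinate dehydrogenase, stood out among respiratory genes with 21.7, 31.0 and 25.7 CPM in the brains and 1.56 to 2.39 CPM (median 2.11) in the bodies (3.69 ± 0.196).

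Immediate early genes, which neurons induce within minutes of firing and other cells on stress, were higher in brain for 17 of 27 and lower for 6. fosaa had 22.6, 26.2 and 20.2 CPM in the brains and 0.326 to 1.18 CPM (median 0.884) in the bodies (log2 fold change 4.77 ± 0.291), and egr1 had 215, 249.6 and 223 CPM in the brains and 36.0 to 68.4 CPM (median 49.0) in the bodies (2.21 ± 0.176, edgeR adjusted p = 1.23e-06). NR4A1 and the phosphatase gene DUSP1 went the other way, NR4A1 with 19.4, 19.2 and 13.4 CPM in the brains and 77.9 to 184 CPM (median 129) in the bodies and DUSP1 with 28.3, 22.8 and 13.8 CPM in the brains and 94.4 to 128 CPM (median 111) in the bodies. Of 24 genes of cholesterol synthesis and uptake 13 (54.2%) were lower and 2 (8.33%) higher, against 40.3% and 36.8% of all genes. Tubulins divided, 9 higher and 6 lower of 18, against 36.8% and 40.3% of all genes. tuba5 had 24.2, 20.9 and 22.1 CPM in the brains and 171 to 233 CPM (median 210.1) in the bodies (-3.22 ± 0.156).

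Many genes listed for the eye had too few counts to test. Of 54 genes of rods and cones 18 passed the filter. Of these, 11 (61.1%) were higher and 3 (16.7%) lower in brain, against 36.8% and 40.3% of all genes. The levels of all 54 summed to 573, 567 and 567 CPM in the brains and 212 to 269.7 CPM in the bodies. This sum covers every listed gene, with gnb1a and gnb1b among the terms, and does not measure rod and cone transcript alone. Of 21 genes of the inner retina and its pigment epithelium 17 passed, with 10 (58.8%) higher and 4 (23.5%) lower. These 21 genes summed to 231, 232 and 237 CPM in the brains and 81.5 to 114 CPM in the bodies. Of 30 genes of lens and cornea 3 passed, with 2 higher and 0 lower. Their sums were 19.9, 33.0 and 25.5 CPM in the brains and 3.44 to 6.24 CPM in the bodies, low in both tissues. The rod arrestin saga had 1.83, 0.901 and 1.84 CPM in the brains and 0 to 1.83 CPM (median 0.499) in the bodies. The melatonin enzyme gene aanat2 of the pineal gland had 1.01, 0.801 and 0.644 CPM in the brains and 0.191 to 0.967 CPM (median 0.735) in the bodies and was not tested. Both genes overlapped between tissues. PDE6G, a phosphodiesterase subunit known from rods, was higher in brain with 15.4, 15.3 and 11.1 CPM in the brains and 0.668 to 1.62 CPM (median 0.898) in the bodies (3.78 ± 0.272).

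Among the most abundant genes that were at least 8-fold higher in brain were the glycolytic genes ALDOC and GAPDHS, given above with their values. Ependymin epd, a secreted protein of the fish meninges, had 11528, 6554 and 5312 CPM in the brains and 40.9 to 393 CPM (median 172) in the bodies, with brain 1 highest (log2 fold change 5.33 ± 0.671, edgeR adjusted p = 3.61e-05). Carboxypeptidase CPE, which trims neuropeptides, had 1477, 1439 and 1552 CPM in the brains and 48.1 to 139 CPM (median 70.6) in the bodies (4.104 ± 0.353), calsyntenin CLSTN1 of synapses had 1406, 1514 and 1494 CPM in the brains and 62.6 to 153 CPM (median 78.4) in the bodies (3.92 ± 0.31), and the neuronal intermediate filament gene neff2 had 1465, 1818 and 1307 CPM in the brains and 55.1 to 137 CPM (median 67.6) in the bodies (4.18 ± 0.309). GPM6A (ENSDARG00000055455), a neuronal membrane protein, and STMN1 (ENSDARG00000033655), which destabilises microtubules, changed by 4.54 and 3.95. By the smallest adjusted p, genes with little spread within each tissue led. atp6v1e1b, a proton pump subunit, had 278, 291 and 292 CPM in the brains and 46.5 to 51.6 CPM (median 49.2) in the bodies (2.55 ± 0.0987), and PAM, which amidates peptides, had 453, 424 and 483 CPM in the brains and 55.7 to 69.6 CPM (median 60.2) in the bodies (2.88 ± 0.118). GUCY1B1, a subunit of the nitric oxide receptor, had 64.2, 50.8 and 58.4 CPM in the brains and 2.71 to 4.16 CPM (median 3.91) in the bodies (3.94 ± 0.159). RNASEK (ENSDARG00000104458), REEP2 and TMEM9 changed by 4.20, 3.84 and 3.18. At the other end, nme2b.2, a nucleoside diphosphate kinase, had 42.8, 12.2 and 6.90 CPM in the brains and 10282 to 17093 CPM (median 15169) in the bodies (-9.45 ± 0.741), and the tropomodulin TMOD4 of muscle had 3.75, 3.204 and 4.33 CPM in the brains and 259 to 350.3 CPM (median 309) in the bodies (-6.35 ± 0.197).

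A few abundant genes had similar levels in the WT libraries under TMM scaling. With a 95% interval of the log2 fold change within 0.5 on either side of 0, the 5 most abundant were MT-ND5, a mitochondrial gene of complex I, with 1209, 1111 and 1289 CPM in the brains and 999 to 1392 CPM (median 1169.5) in the bodies, the cold-inducible RNA-binding gene cirbpb with 1072, 998 and 1096 CPM in the brains and 926 to 1192 CPM (median 1071) in the bodies, the actin-binding tmsb4x, CD81 (ENSDARG00000036080) and MDH1. Their log2 fold changes were 0.02 ± 0.141, -0.029 ± 0.125, -0.0012 ± 0.124, 0.02 ± 0.16 and 0.21 ± 0.129. With library totals as the only scaling all 5 were called higher in brain, with log2 fold changes of 0.51, 0.46, 0.49, 0.51 and 0.70 in the same order. Under TMM scaling the similar level did not hold in the mutant lines for every one of them. CD81 was called lower in brain in M (-0.66) and S (-0.51), as was MDH1 (-0.37 and -0.30). Beta-actin genes were lower in brain, with actb2 at 2098, 2112 and 2175 CPM in the brains and 3001 to 3782 CPM (median 3217) in the bodies (-0.65 ± 0.127) and actb1 at -1.29 ± 0.164. With library totals actb2 was not called (-0.16, edgeR adjusted p = 0.239).

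Of the gene family that the mutant lines target, CCSER2 was higher in brain, with 70.3, 67.0 and 74.9 CPM in the brains and 21.6 to 25.4 CPM (median 24.0) in the bodies (log2 fold change 1.57 ± 0.11, edgeR adjusted p = 5.09e-07). ccser1, listed as CCSER1, had 7.91, 8.41 and 5.80 CPM in the brains and 3.69 to 7.03 CPM (median 5.20) in the bodies, so brain 3 overlapped the bodies and the gene was not called (0.52 ± 0.25, adjusted p = 0.0775). Without body 4 it was (0.66, adjusted p = 0.0327), as with library totals (1.003, adjusted p = 0.00554). ccser2b had 4.97, 5.51 and 5.71 CPM in the brains and 2.68 to 5.80 CPM (median 3.33) in the bodies and was not called either (0.54 ± 0.27, adjusted p = 0.0911), but was without body 6 (0.70, adjusted p = 0.0163) and with library totals (1.01, adjusted p = 0.00757).

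The same contrast was fitted in the mutant libraries, which share no sample with the WT fit. Of the 16289 genes called in WT, 15421 were tested in the 10 M libraries, and 13934 (90.4%) were called there with the same sign and 145 with the opposite sign. In the 10 S libraries 15450 were tested, and 14025 (90.8%) were called with the same sign and 72 with the opposite sign. In M, 38.8% of all tested genes were called higher and 43.8% lower in brain, and in S 38.2% and 43.5%. Of the WT calls of at least 4-fold, 8035 of 8210 tested in M and 8047 of 8246 in S were called there with the same sign, and 22 and 7 with the opposite one. The opposite sign in both lines was called for 26 genes. Besides GFAP, other WT calls of single genes given above did not repeat in both lines. For example, LHX8 was called in neither, HOXC4, GATA3 and LDHA were not called in M, and HTR4 was not called in S.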

How the data were processed

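Poly(A) RNA was sequenced as 150 bp read pairs on an HiSeq instrument, per the labels. As deposited, each tissue had a table of 32520 genes with whole-number counts that the authors had not normalized, which was tested on the values. STAR, GRCz11 and GRCz10 appear in the submitters' processing notes. Which program counted the reads, against which annotation and with what strand setting, is not given in the sources.

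The tables were joined by gene. The quasi-likelihood test of edgeR 4.0.16 (R 4.3.3), robust and on TMM-scaled libraries after the package's filter on low counts, compared WT brains with WT bodies, and the M and S libraries had fits of their own. Calls used a Benjamini-Hochberg adjusted p below 0.05. A standard error is the log2 fold change over the root of F. DESeq2 1.42.0, other scalings, filters and left-out libraries were alternatives, and the code was tested on simulated data. The simulation changed 100 genes 2-fold and 100 genes 4-fold among 19747, with levels set from the mean of the bodies. There the code recovered 15.8% of 2-fold and 80% of 4-fold changes. With so few genes changed, the adjusted p was a stricter cut than in the real fit, where 77.1% of genes were called. These shares therefore do not measure how many changes the WT comparison missed. A gene that was not called may still differ between tissues. Counting intervals at 95% and bounds against a floor of 3 counts over the 3 brains cover counting error only.

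Gene names came from a table that matched 29201 of 32520 IDs. It writes many in human style, and 1719 symbols belong to more than 1 gene, which then carry the ID. Gene lists (105, with 53 of 1058 terms unmatched) and members were chosen with earlier results of these data known. A term matched every gene with its symbol, so genes that share a symbol can make up part of a list. Named genes were the 12 most abundant per direction of those changed at least 8-fold, the 8 of smallest adjusted p, per list the 3 called members of smallest p and up to 2 of opposite sign, isoform families, the 5 most abundant with an interval within 0.5 of 0, the ccser genes and defining markers. Whether replicate numbers pair the tissues is not given in the sources used here, and the main fit treated the libraries as unpaired. Promoter sequences were not used here. Some genes that this rule names are not reported here.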

Additional observations from a re-analysis of the deposited data

Results flagged for a closer look

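Of 285 genes and summed lists examined over the 6 bodies, 13 had a highest or lowest body whose gap to the next exceeded Dixon's 95% critical value for 6 samples. Chance alone flags about 1 in 20. Body 6 was the highest of the bodies for DNAH1 at 5.05 CPM, GLRA1 at 16.1 CPM, HTR3A at 4.19 CPM, NEUROD2 at 2.79 CPM, SLC6A5 at 20.1 CPM, TH at 1.93 CPM and avp at 0.215 CPM, where it was the only body with a count of avp. Body 3 was the highest for HTR1D at 1.12 CPM, PMCH at 1.01 CPM and oxt at 3.04 CPM. Bodies 3 and 6 were also those with the largest synaptic vesicle sums. Body 5 was the lowest for GUCY1B1 at 2.71 CPM and the highest for f2 at 405 CPM. Body 4 was the lowest for tmsb4x at 729 CPM. The brains, 3 in number, were not examined in this way.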

How the results depend on the processing

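Beside the 16289 genes called, RLE scaling called 16368, upper-quartile scaling 16351, library totals alone 16523 and DESeq2 16652. The count of genes higher in brain was 5076 in place of 7769 when a change had to exceed 2-fold (glmTreat), an outcome of the stricter null. Leaving out 1 library at a time gave 15404 to 16496 genes called, 7361 to 7753 higher, 8043 to 8743 lower, 3687 to 3841 higher and 5098 to 5511 lower by at least 4-fold. List members called were 587 to 607 higher and 773 to 817 lower. Genes of the same sign were 13369 to 13918 in M and 13440 to 14076 in S, and those of opposite sign 93 to 217 in M and 47 to 105 in S. The fit with the replicate number as a block, over bodies and brains of like number, called 14353. The sources used here do not say whether the numbers pair the tissues. Correlations of deviations of same-numbered libraries were -0.023, -0.036 and -0.028. These cannot settle it, because deviations of brain and body need not correlate within a fish. The block removed calls of th2, pmchl, HTR4, havcr1, ldhbb and a copy of SLC2A1 among the genes named here. Library totals alone reversed the sign of cirbpb (0.46), mbpb (0.42), pgam1a (0.49) and tmsb4x (0.49) and called them higher in brain. It also called both copies of TPI1, MT-ND5, CD81, MDH1, CCSER1, ccser2b, kdrl and UGT8 higher, and ended the calls of actb2, pvalb7, HTR4, ldhbb, gh1 and a copy of SLC2A1. It turned the majority in these lists, in which 4 endothelial, 4 blood-brain barrier, 4 mitochondrial ribosome, 10 respiratory chain and 6 proteasome genes were then lower. Without bodies 3, 4 and 6, 0 pituitary genes were lower, and without brain 3 more hox genes of groups 5 to 8 were higher than the 3 that were lower. The cause of these changes was not tested. Over the genes named here and all settings other than leaving out 1 library, calls were lost 31 times, 15 of them under glmTreat, and gained 21 times. The share of promoters with a motif was not run. At these depths genes with 3 or fewer counts in a tissue have no usable fold change, only a bound or a counting interval.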
